A study of Mus musculus with 7 samples.

Results

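Polycomb repressive complex 2 (PRC2) was followed at the RNA level in mouse embryonic fibroblasts (MEFs) and mouse embryonic stem cells (mESCs). Its 10 genes, Ezh1, Ezh2, Eed, Suz12, Rbbp7, Jarid2, Aebp2, Mtf2, Phf19 and Phf1, were taken by gene symbol from a count table of 55484 rows. The table held 4 MEF and 3 mESC RNA-seq libraries, both cell types untreated as far as the labels say and on a C57/Bl6 background. MEFs are connective tissue cells cultured from whole embryos, and mESCs are cultured cells of the early embryo that can form all tissues of the body. In the study this RNA data set was an existing one, set beside chromatin accessibility data to follow transcription factors. The study speaks of biological replicates for these RNA data, with one MEF library fewer than the table holds, and the labels name no culture or animal for a library. The p-values below measure the spread between these libraries. In bulk RNA, fewer cells of a type and less RNA per cell cannot be told apart.

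PRC2 places methyl groups on lysine 27 of histone H3, the mark of Polycomb-silenced genes. Its catalytic subunit is Ezh2 or the less active Ezh1, held by Eed, which reads the mark, and Suz12, the scaffold, together with a histone-binding protein, Rbbp4 or Rbbp7. Accessory subunits define alternative forms: PRC2.2 carries Jarid2 and Aebp2, and PRC2.1 carries one of the Polycomb-like proteins Mtf2, Phf19 and Phf1. In mESCs the complex holds developmental regulators in a repressed state, and its core genes are known to be expressed at higher levels in dividing cells.

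The libraries held 6528643 to 11441278 counts on genes and are named below by these totals. Levels are given in CPM, counts scaled to a common library size by the TMM method, and a floor of 3 counts corresponded to 0.289 to 0.479 CPM, for counting error only. The 8 mESC marker genes, Pou5f1, Nanog and Sox2 among them, summed to 39.9 to 45.5 CPM in the MEF libraries and 2951 to 3226 CPM in the mESC libraries, with Zfp42 at or under the floor in every MEF library. The 8 fibroblast markers summed to 23071 to 39727 CPM in MEFs and 144 to 164 CPM in mESCs. The extraction text of the labels speaks of blood stem cells from young and aged mice, although the cell type labels do not. The 6 blood stem cell markers summed to 29.1 to 37.7 CPM in MEFs and 2.28 to 4.62 CPM in mESCs, with Gata1 and Vav1 at or under the floor in every MEF library. Most of the MEF sum was Cd34, at 25.9 to 33.4 CPM. Slamf1 did not separate the groups. It was above the floor in every library, at 1.64 to 3.99 CPM in MEFs and 1.26 to 3.56 CPM in mESCs. Ptprc, the pan-leukocyte marker, had 1, 6, 17 and 6 counts in MEFs and was at or under the floor in every mESC library. The levels of the mESC and fibroblast markers placed each group with its cell type label, and low levels of the other type's markers were present in both. Their part in the results below was not tested.

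The promoters of 5 members are shown here. They are the 3 that hold the letters bound by E2F factors, the regulators of S-phase genes, and those of Mtf2 and Jarid2. The other members, Ezh1 among them, hold no such letters in their windows and are not shown. The choice was made in part by these letters, so 3 of 5 is not their share among the 10 members. Sequences are from RefSeq on GRCm38.p6, read 5′ to 3′ on the strand of the gene, and capitals mark the 8 letters of an E2F match (TTTGGCGC or TTTCCCGC on either strand). The Ezh2 stretch is chr6:47595001-47595100 on the minus strand and runs from 70 bases before to 30 bases after the start site. The Suz12 stretch is chr11:79992856-79992955 on the plus strand, and the Phf19 stretch is chr2:34914127-34914226 on the minus strand, both from 250 to 151 bases before the start. The stretches of Mtf2 (chr5:108065574-108065673) and Jarid2 (chr13:44730674-44730773), both on the plus strand, are the 100 bases before one of their start sites and hold no such letters.
Ezh2: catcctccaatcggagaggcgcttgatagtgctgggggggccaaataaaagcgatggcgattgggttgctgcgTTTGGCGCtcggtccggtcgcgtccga
Suz12: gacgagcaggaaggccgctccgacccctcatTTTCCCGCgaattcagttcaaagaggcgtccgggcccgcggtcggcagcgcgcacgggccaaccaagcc
Phf19: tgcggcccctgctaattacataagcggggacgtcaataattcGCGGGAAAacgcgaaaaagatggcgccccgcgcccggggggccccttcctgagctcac
Mtf2: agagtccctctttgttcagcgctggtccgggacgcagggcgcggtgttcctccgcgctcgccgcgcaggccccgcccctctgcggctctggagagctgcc
Jarid2: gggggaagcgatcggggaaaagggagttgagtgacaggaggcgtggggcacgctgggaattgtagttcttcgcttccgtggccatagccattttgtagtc

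All 10 members matched at least 1 of the 32851 promoter windows of 300 bases, and together they had 14 windows. The E2F letters stood in 3 of these 14, against 1.57% of all windows. They began at position 4 from the start site in Ezh2, at position -219 in Suz12 and at position -208 in Phf19, where they lay in reverse. The CCAAT box (CCAAT on either strand) stood in 8 of the 14 windows against 37.4% of all, and the GC box (GGGCGG on either strand) in 9 of the 14 against 35.7%. CpG pairs were frequent, with 17 to 41 of them in 11 of the 14 windows, where 31.4% of all windows held 17 or more. The threshold of 17 is the lowest value among these 11 windows, so this contrast was set in part by the members themselves. The remaining member windows held 2 to 4, and the median over all windows was 7. These matches describe the letters only, and 10 genes are too few to read more from them.

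Most PRC2 genes were expressed at higher levels in mESCs. Of the 10 members, all of which had enough counts to be tested, 7 were higher in mESCs (Ezh1, Ezh2, Eed, Suz12, Jarid2, Aebp2 and Mtf2), 2 were lower (Rbbp7 and Phf1) and Phf19 did not pass the test (quasi-likelihood test of edgeR, Benjamini-Hochberg adjusted p under 0.05 over 16580 genes). Over all tested genes 22.8% were higher and 25.0% were lower in mESCs. Phf1 passed the filter on low counts through MEFs alone. Every mESC library lay above every MEF library for the same 7 members, against 25.9% of all tested genes, and below for the same 2, against 26.2%. The median log2 fold change was 1.36 over the members and 0.037 over all tested genes. Against a fold change of 2, 5 members stayed higher in mESCs (Ezh1, Eed, Suz12, Jarid2 and Mtf2), where 10.3% of all tested genes did. Summed over the 10 members, the level was 782 to 873 CPM in the MEF libraries and 1926 to 2154 CPM in the mESC libraries.

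**Figure D1:**
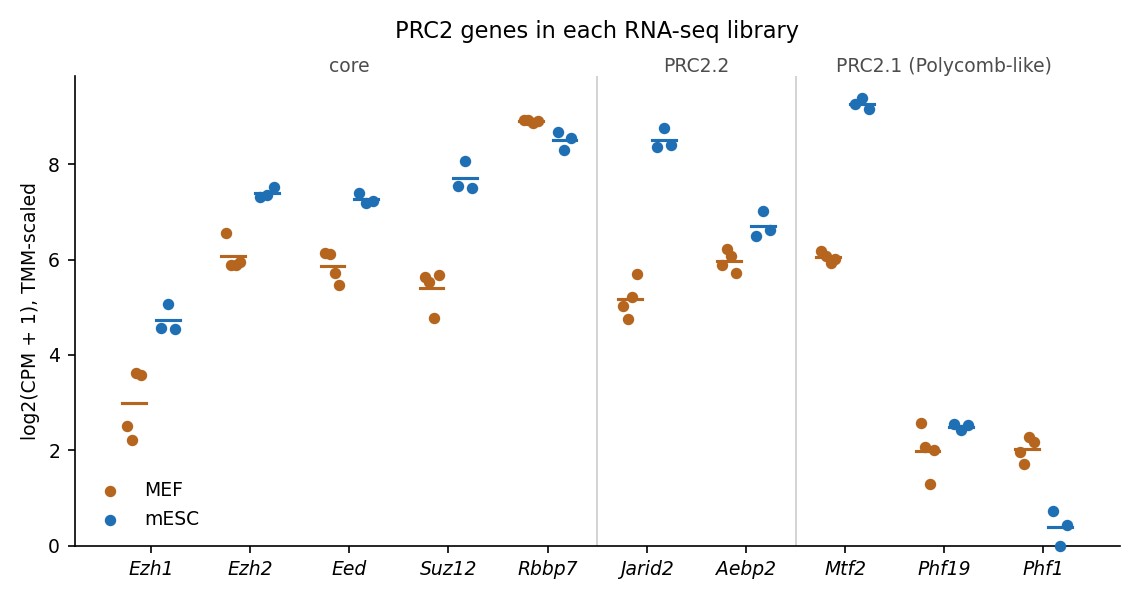
Level of each PRC2 gene in each library, as log2(CPM + 1) after TMM scaling, for 4 MEF (brown) and 3 mESC (blue) libraries, with a line at the group mean. The groups are apart for 9 of the 10 genes, overlap for Phf19, and are reversed for Rbbp7 and Phf1.

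Among the catalytic subunits, Ezh2 (chr6:47530139-47595341, minus strand) was the main one in both cell types. It had 93.4, 58.4, 58.2 and 60.9 CPM in the 4 MEF libraries (11441278, 7312679, 9176467 and 6528643 counts in all), and 158, 164 and 184 CPM in the 3 mESC libraries (8193825, 8057985 and 7462710 counts). The MEF library of 11441278 counts stood above the other MEF libraries but far below the mESC libraries. The log2 fold change was 1.32 (SE 0.192, adjusted p = 0.000239), but a fold above 2 was not established for Ezh2 (adjusted p = 0.0731 in edgeR's test against that fold).

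Ezh1 (chr11:101191115-101226463, minus strand), the paralog known from resting and differentiated cells, was much lower than Ezh2 in every library. It had 4.72, 3.68, 11.3 and 11.0 CPM in the MEF libraries, in the same order, and 22.5, 32.5 and 22.4 CPM in the mESC libraries. The MEF libraries fell into a low pair and a high pair, and the mESC libraries were above both. Ezh1 was therefore also higher in mESCs, with a log2 fold change of 1.75 (SE 0.392, adjusted p = 0.00372). The coefficient of variation was 52.7% among MEF libraries and 22.5% among mESC libraries. Another measure moved with this spread. The summed level of the Y-linked genes Ddx3y, Eif2s3y and Kdm5d was 2.12 and 0.613 CPM in the MEF libraries low in Ezh1, and 91.0 and 88.8 CPM in those high in Ezh1. In the mESC libraries it was 1.74, 1.83 and 36.0 CPM, with the last in one of those lower in Ezh1, and its part in the Ezh1 values was not tested. These pairs of MEF libraries were also apart, in either direction, for Eed, Rbbp7, Jarid2, Mtf2, Phf19 and Phf1. They were not apart for Ezh2, Suz12 and Aebp2. The tests used here treat each MEF library as a separate unit, and the part of this grouping in the results was not tested.

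The balance of Ezh1 to Ezh2 was taken within each library, where scaling between libraries cancels. Ezh1 made up 4.81%, 5.93%, 16.3% and 15.3% of the counts of both genes in the MEF libraries and 12.5%, 16.6% and 10.8% in the mESC libraries. The exact 95% binomial intervals of the MEF libraries of 11441278 and 7312679 counts, 3.58% to 6.31% and 3.83% to 8.69%, lay below the lower bounds of the other MEF libraries, 13.4% and 12.1%. The log2 ratio was -3.27 ± 1.0 in MEFs (SD, n = 4) and -2.73 ± 0.36 in mESCs (SD, n = 3). The groups overlapped, and their difference of 0.54 was not larger than the spread between libraries (exact permutation test over the 35 allocations of the 7 libraries, two-sided, p = 0.4, where 0.0286 is the smallest possible). Differences from -1.58 to 2.93 on the log2 scale were not rejected by the same test at 0.05. A change of the balance in either direction within these limits is thus compatible with the data. With one library left out the difference ranged from 0.20 (without the MEF library of 11441278 counts) to 0.84 (without that of 9176467 counts). It was 0.31 without the MEF library of 7312679 counts and 0.34 without the mESC library of 8057985 counts. Per kilobase of exon the Ezh1 share was 9.64% ± 5.56 in MEFs and 12.1% ± 2.72 in mESCs (SD, n = 4 and 3).

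Both catalytic genes together gave 98.1, 62.0, 69.5 and 71.9 CPM in the MEF libraries and 181, 196 and 207 CPM in the mESC libraries. The groups did not overlap, and the sum was 2.62-fold higher in mESCs, a log2 difference of 1.39 (the same exact permutation test, p = 0.0286). Differences from 0.45 to 1.99 on the log2 scale were not rejected by that test.

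The core partners Eed and Suz12 were both higher in mESCs. Eed (chr7:89954654-89980983, minus strand) had 69.9, 68.6, 52.0 and 43.1 CPM in MEFs and 168, 144 and 150 CPM in mESCs. The mESC libraries lay close together, and every one of them was above the MEF libraries. The log2 fold change of Eed was 1.40 (SE 0.189, adjusted p = 0.000143).

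Suz12 (chr11:79993106-80034123, plus strand) had 48.7, 45.0, 26.5 and 50.3 CPM in MEFs and 186, 268 and 182 CPM in mESCs. The MEF library of 9176467 counts was the lowest of its group and the mESC library of 8057985 counts the highest of its own. With a log2 fold change of 2.31 (SE 0.238, adjusted p = 1.98e-05), Suz12 differed most among the core genes. The 3 genes of the catalytic core, Ezh2, Eed and Suz12, summed to 137 to 212 CPM in MEFs and 512 to 575 CPM in mESCs.

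Rbbp7 (chrX:162760402-162779092, plus strand), a histone chaperone that also serves other complexes such as NuRD, had the highest level of the members in MEFs, in CPM and per length, and went the other way. It had 487, 483, 466 and 481 CPM in MEFs and 411, 313 and 373 CPM in mESCs. The MEF libraries hardly differed, with a coefficient of variation of 1.95%, and all lay above the mESC libraries. The log2 fold change was -0.39 (SE 0.127, adjusted p = 0.0267). This call did not survive without scaling beyond library size, where the log2 fold change was -0.10 (adjusted p = 0.553, edgeR), nor without the mESC library of 8057985 counts (adjusted p = 0.108) or that of 7462710 counts (adjusted p = 0.0586). The annotated transcripts of Rbbp7 share 11.2% of their 50-base sequences with other genes, Gm6382 and Txlng.

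Of the accessory subunits, Jarid2 and Mtf2 showed the largest log2 fold changes of all members. Jarid2 (chr13:44729474-44921643, plus strand) is a Jumonji-family protein without demethylase activity that helps PRC2 to bind chromatin. It had 31.5, 26.2, 36.1 and 50.6 CPM in the MEF libraries and 330, 430 and 340 CPM in the mESC libraries. The lowest mESC library was thus far above the highest MEF library. The fitted difference was 10.2-fold, a log2 fold change of 3.34 (SE 0.225, adjusted p = 9.04e-07).

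Mtf2 (chr5:108065674-108109004, plus strand), the Polycomb-like protein that brings PRC2 to unmethylated CpG-rich DNA, had 71.5, 66.6, 59.6 and 63.3 CPM in MEFs and 614, 669 and 572 CPM in mESCs. Both groups were tight, with coefficients of variation of 7.77% and 7.85%. The fitted difference was 9.48-fold, a log2 fold change of 3.24 (SE 0.133, adjusted p = 3.54e-08).

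Aebp2 (chr6:140622663-140678472, plus strand), a zinc finger protein of PRC2.2, differed far less. It had 58.2, 73.7, 66.9 and 51.4 CPM in MEFs and 89.5, 129 and 97.3 CPM in mESCs. The groups did not overlap, and the log2 fold change was 0.75 (SE 0.185, adjusted p = 0.00650).

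The other Polycomb-like genes were expressed at low levels in both cell types. Phf19 (chr2:34893757-34914026, minus strand) had 4.92, 3.22, 1.44 and 3.04 CPM in MEFs and 4.90, 4.34 and 4.74 CPM in mESCs. The MEF library of 11441278 counts was as high as the mESC libraries, so the groups overlapped. The log2 fold change of 0.55 (SE 0.445) did not pass the test (adjusted p = 0.340).

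Phf1 (chr17:26933052-26937908, plus strand), a Polycomb-like protein that binds methylated lysine 36 of histone H3, was lower in mESCs. Its counts were 30, 15, 32 and 22 in MEFs and 6, 0 and 3 in mESCs, or 2.30 to 3.85 CPM against 0 to 0.653 CPM. In 2 of the 3 mESC libraries it was at or under the floor of 3 counts. It passed the filter on low counts through MEFs alone, so the adjusted p below adds no support to these counts. The log2 fold change was -3.16 (SE 0.778, adjusted p = 0.00647), and the pooled counts, 99 against 9, gave a level 9.22 times higher in MEFs (exact 95% interval 4.67 to 20.8, counting error only). Phf1 is uncertain as a gene, since 39.3% of its exon bases are overlapped by exons on the other strand (Cuta and AC144621.3), 28.3% of its 50-base sequences are shared with other genes, and the strand setting of the counting was not given in the sources used here. For Ezh2, Eed, Suz12, Rbbp7 and Mtf2 the overlapped share was between 2.61% and 6.93%, and for the other members it was 0%.

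**Figure D2:**
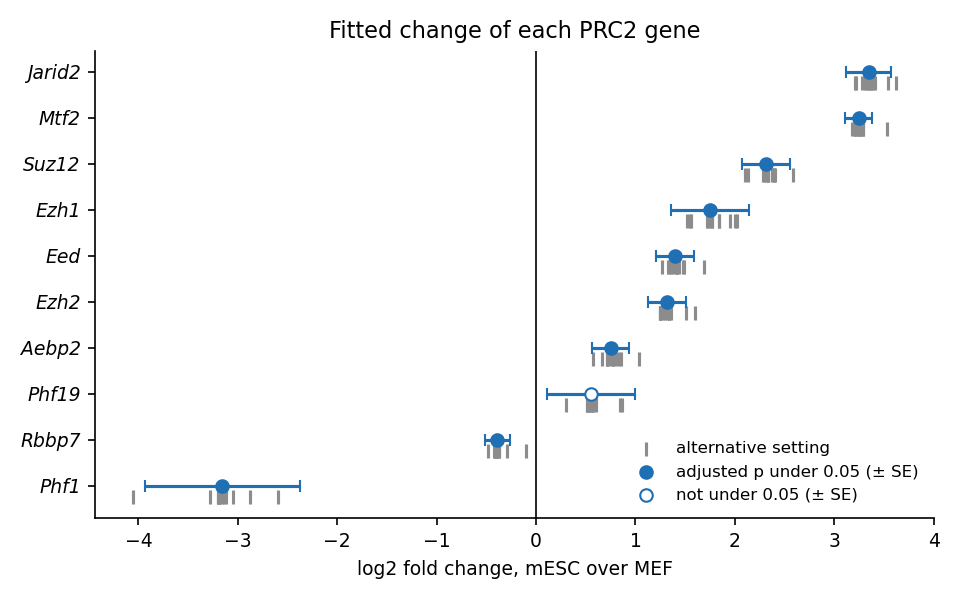
Fitted log2 fold change of each PRC2 gene, mESC over MEF, with its standard error (blue) and the values under the alternative settings (grey ticks). Jarid2 and Mtf2 stand apart at the top, between 3.18 and 3.62 under every setting, and the Rbbp7 ticks reach -0.10.

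The accessory subunits thus differed unequally between the cell types, and their balance was taken within libraries. The summed counts of Jarid2 and Aebp2 over those of Mtf2, Phf19 and Phf1, PRC2.2 over PRC2.1 genes, gave log2 ratios of 0.18, 0.47, 0.67 and 0.55 in the MEF libraries and -0.56, -0.27 and -0.40 in the mESC libraries. PRC2.2 genes held more of the counts in every MEF library and PRC2.1 genes in every mESC library. The difference was -0.88 (p = 0.0286 in the exact permutation test), with differences from -1.34 to -0.21 not rejected. Per kilobase of exon the difference was -0.82, with means of -0.36 in MEFs and -1.19 in mESCs. On that scale PRC2.1 genes were the larger sum in both cell types. The libraries were primed at the poly(A) tail, where counts need not rise with length. Which form has the larger sum in MEFs therefore depends on the scale.

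This balance depended on which genes carried it. With the mean of the log2 counts of each gene in place of their sum, which gives the few counts of Phf1 the same weight as those of Mtf2, it turned to 1.96 (exact permutation test, p = 0.0286). Jarid2 counts over Mtf2 counts, a ratio chosen after the values were seen, were 0.441, 0.393, 0.606 and 0.801 in the MEF libraries and 0.537, 0.643 and 0.595 in the mESC libraries. These overlapped, with a log2 difference of 0.13 (exact permutation test, p = 0.657). Among the counts of the 5 accessory genes, the Aebp2 share was 36.8% ± 5.73 in MEFs and 9.56% ± 0.933 in mESCs (SD, n = 4 and 3). The Mtf2 share was 38.3% ± 2.97 and 56.6% ± 2.42, and the Jarid2 share 21.2% ± 6.07 and 33.4% ± 1.57. Within the 3 Polycomb-like genes, Mtf2 held 91.2% ± 1.03 of the counts in MEFs and 99.2% ± 0.142 in mESCs.

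**Figure D3:**
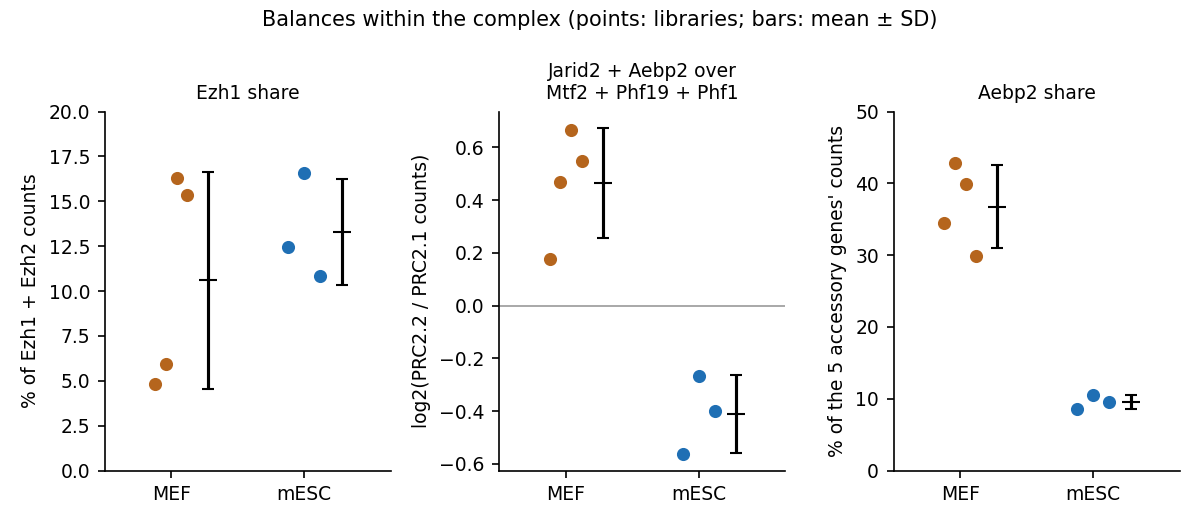
Balances within PRC2 in each library (points), with the mean ± SD of 4 MEF and 3 mESC libraries (black): the Ezh1 share of Ezh1 and Ezh2 counts in percent, the log2 ratio of PRC2.2 to PRC2.1 counts, and the Aebp2 share of the 5 accessory genes' counts in percent. The Ezh1 shares overlap, at 4.81% to 16.3% in MEFs and 10.8% to 16.6% in mESCs, while the other measures are apart.

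For levels between genes, CPM were divided by the length of merged exons in kilobases. The libraries were primed at the poly(A) tail, where a transcript gives its counts near one end whatever its length. The division may therefore place long transcripts too low, and the order without it is given after this one. In MEFs the means ran from Rbbp7 at 165 CPM per kb through Eed (15.3), Mtf2 (11.5), Ezh2 (10.1), Suz12 (8.62) and Aebp2 (6.35) CPM per kb to Jarid2 at 3.72 CPM per kb. Ezh1, Phf1 and Phf19 followed with 1.03, 0.901 and 0.626 CPM per kb. Neighbours from Eed to Aebp2 overlapped between libraries, as did the lowest 3, whereas Rbbp7 was apart from Eed, and Jarid2 from both of its neighbours.

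In mESCs Rbbp7 (126 CPM per kb) and Mtf2 (109 CPM per kb) overlapped at the top. Suz12, Eed and Jarid2 came next with 42.8, 40.2 and 37.7 CPM per kb and overlapped with their neighbours in this set. Below them Ezh2 (25.3), Aebp2 (10.7), Ezh1 (3.47), Phf19 (0.925) and Phf1 (0.0965 CPM per kb) were each apart from the next. This order depends on the division by length. In CPM without it, the means ran in MEFs from Rbbp7 through Ezh2, Mtf2, Aebp2, Eed, Suz12 and Jarid2 to Ezh1, Phf19 and Phf1, and in mESCs from Mtf2 through Jarid2, Rbbp7, Suz12, Ezh2, Eed and Aebp2 to Ezh1, Phf19 and Phf1.

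**Figure D4:**
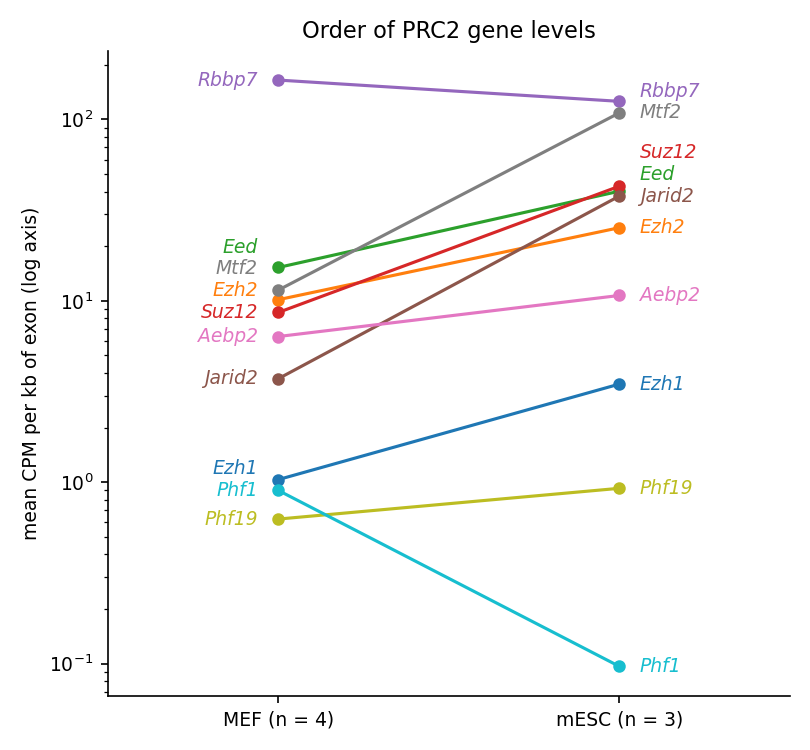
Mean level of each PRC2 gene in CPM per kilobase of exon, on a log axis, in 4 MEF and 3 mESC libraries, with a line joining the values of a gene. Mtf2 moves from 11.5 to 109 and Jarid2 from 3.72 to 37.7, while Phf1 drops to 0.0965.

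Of 12 further genes around PRC2, 11 could be tested. Of these, 4 were higher and 3 lower in mESCs, where 22.8% and 25.0% of all tested genes were. Cbx7, among the 4, passed the filter on low counts through mESCs alone. Among other subunits, Epop, which joins PRC2.1 to Elongin, had 1.76 to 4.14 CPM in MEFs and 23.6 to 34.7 CPM in mESCs, a log2 fold change of 3.45 (SE 0.328, adjusted p = 1.11e-05). Rbbp4, the paralog of Rbbp7, had 269 ± 36.5 CPM in MEFs and 355 ± 16.2 CPM in mESCs (SD, n = 4 and 3), with a log2 fold change of 0.40 (adjusted p = 0.0344). The Rbbp4 call held without the MEF library of 11441278 counts but was lost without any other one library (adjusted p = 0.0634 to 0.118, edgeR) and without a filter on low counts (adjusted p = 0.113). Lcor (0.21, adjusted p = 0.630) and Lcorl (-0.23, adjusted p = 0.467, but 0.054 without scaling beyond library size), whose loci encode PRC2.1-binding proteins, did not pass the test. Ezhip, an inhibitor of PRC2 listed under the symbol AU022751, had 0 counts in all 4 MEF libraries and 10, 33 and 24 counts in the mESC libraries. It was too low for the test, and its level was at least 26.6-fold higher in mESCs, taking 3 counts over the MEF group as the floor.

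The demethylases that remove the mark went in opposite directions. Kdm6a (UTX) had 25.7 ± 2.61 CPM in MEFs and 38.3 ± 4.75 CPM in mESCs (SD, n = 4 and 3), a log2 fold change of 0.58 (adjusted p = 0.0221). The Kdm6a call was lost without the MEF library of 9176467 counts (adjusted p = 0.0582, edgeR), the mESC library of 8057985 counts (0.0903) or that of 7462710 counts (0.0588), and without a filter on low counts (0.104). Kdm6b (JMJD3) had 499 ± 85.4 and 274 ± 14.6 CPM, a log2 fold change of -0.87 (adjusted p = 0.000815). The groups did not overlap for either gene.

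The CBX proteins, which read the mark within PRC1, also differed in kind. Cbx7, the main CBX reader known from mESCs, had 1, 0, 4 and 4 counts in MEFs and 45, 52 and 75 counts in mESCs. The pooled ratio was 22.8 (exact 95% interval 11.7 to 50.7) and the log2 fold change 4.42 (adjusted p = 0.000455). Cbx7 passed the filter on low counts through mESCs alone, so its adjusted p adds no support to these counts. Cbx6 was lower in mESCs, with 89.2 ± 22.2 CPM in MEFs and 31.2 ± 7.04 CPM in mESCs (SD, n = 4 and 3), a log2 fold change of -1.51 (adjusted p = 0.000401). Cbx8 (-1.26, adjusted p = 0.0838) and Cbx2 (0.28, adjusted p = 0.539) did not pass the test. By mean level in mESCs, Cbx7 (6.58 CPM) stood beside Cbx2 (6.58 CPM) and well below Cbx6 (31.2 CPM).

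Of a list of 21 known Polycomb target genes, mostly developmental regulators, 10 had too few counts for the test. Of the other 11, 5 were higher and 2 lower in mESCs, where 22.8% and 25.0% of all tested genes were. These counts support no statement about the list, because 4 of the 5 (Sox1, Olig2, Neurog1 and Lhx2) were at or under the floor in at least 3 MEF libraries and passed the filter on low counts through mESCs. Without the mESC library of 7462710 counts, 8 were higher and 2 lower, and without that of 8193825 counts, 4 were higher and 3 lower. Olig2, a neural regulator, had 2, 1, 2 and 0 counts in MEFs and 175, 242 and 258 counts in mESCs, a pooled ratio of 161 (exact 95% interval 68.7 to 498). Neurog1, a neuronal regulator, had 0 counts in MEFs and 25, 13 and 33 counts in mESCs, at least 28.2-fold higher. Sox1, another neural gene, had 11, 0, 2 and 1 counts in MEFs and 36, 49 and 26 counts in mESCs. Its pooled ratio was 9.46 (exact 95% interval 5.41 to 17.9, counting error only).

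In the other direction, Cdkn2b, which encodes the CDK inhibitor p15 and is a Polycomb target in fibroblasts, had 114 ± 34.8 CPM in MEFs and 7.39 ± 1.55 CPM in mESCs (SD, n = 4 and 3), a log2 fold change of -3.94 (adjusted p = 2.03e-06). Wt1 was lower in mESCs too (-1.36, adjusted p = 0.00920), whereas Gata6, the primitive endoderm regulator, missed the threshold (-0.84, adjusted p = 0.0554). Gata6 passed it with DESeq2 (adjusted p = 0.0345) and without the mESC library of 8193825 counts (adjusted p = 0.00739, edgeR). The levels of these targets are RNA levels, and the histone mark itself was not measured here.

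**Figure D5:**
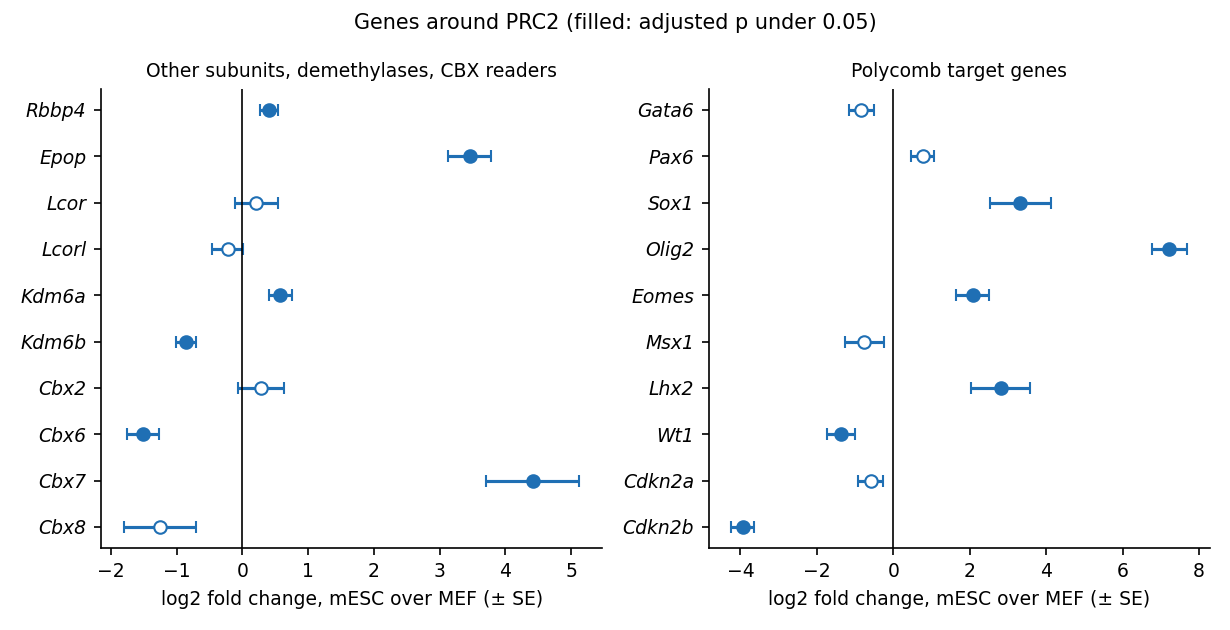
Fitted log2 fold change, mESC over MEF, with its standard error for the tested genes around PRC2 that are described in the text (left) and tested Polycomb target genes (right; Neurog1, at 0 counts in all MEF libraries, is left out), filled where the adjusted p is under 0.05. Epop and Cbx7 stand at 3.45 and 4.42 on the left, and Cdkn2b at -3.94 and Olig2 at 7.22 on the right.

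Proliferation genes also differed between the groups. Of 14 replication and mitosis genes, 10 were higher in mESCs, where 22.8% of all tested genes were, and 0 were lower, where 25.0% were (edgeR, and 0 lower at an unadjusted p under 0.05 or by DESeq2), with a median log2 fold change of 0.95, and they summed to 1719 to 2180 CPM in MEFs and 3412 to 3705 CPM in mESCs. The helicase genes Mcm7 (1.94), Mcm3 (1.54) and Mcm2 (1.48) had the highest log2 fold changes in the list. Birc5 (-0.016), Ccna2 (0.038) and Cdk1 (0.20), genes of mitosis and its entry, had the lowest and did not pass the test, and Birc5 changed sign under several settings. The log2 fold changes of Ezh1 (1.75), Ezh2 (1.32), Eed (1.40), Aebp2 (0.75) and Phf19 (0.55) lay within the range of this list. Those of Jarid2 (3.34), Mtf2 (3.24) and Suz12 (2.31) lay above its highest, and those of Rbbp7 (-0.39) and Phf1 (-3.16) below its lowest. The part of proliferation in the levels of PRC2 genes was not tested.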

How the data were processed

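RNA-seq gene counts of 4 MEF and 3 mESC libraries were used. The authors demultiplexed and trimmed the reads and used STAR for alignment to mm10. The STAR version is 2.4.2a in the submitters' processing notes, and the study's methods name another version. They then collapsed molecular identifiers and assigned unique alignments to exons with featureCounts. The deposited values are raw counts. Annotation release and strand setting were not given in the sources used here. Column names give the cell type but not the sample, so libraries were named by totals, and 0 columns were left unused. All columns of a cell type share a prefix and a letter tag (O in MEFs, Y in mESCs), and both differ between the cell types. The labels explain neither, so whether the libraries of a cell type came from separate sources is not known from them. The extraction text names young and aged mice, but the labels do not tie the letter tag to age. Whatever the tag stands for cannot be told apart from cell type here. Counts were filtered (filterByExpr), scaled by TMM and tested with edgeR 4.0.16 (limma 3.58.1, R 4.3.3) without covariates, with Benjamini-Hochberg adjustment at 0.05. SE is the log2 fold change divided by the root of the quasi-likelihood F. Balances used counts plus 0.5 (Ezh1 to Ezh2) or summed counts, and an exact permutation test. Code was tested on simulated data. Alternatives were DESeq2 1.42.0, other scalings, filters and offsets, a test against a fold change of 2, and each library left out. Members and lists were chosen with earlier results of these data known. All members and pathway genes are named, apart from 1 pathway gene that is counted but not reported here, and the 3 highest and 3 lowest tested log2 fold changes of the target and proliferation lists. Coordinates are from GENCODE M21 (GRCm38), which held 96.2% of the symbols.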

Additional observations from a re-analysis of the deposited data

Results flagged for a closer look

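Among 35 sets of MEF values tested for a library far from the others (Dixon's criterion), 2 were marked, where chance gives about 1.75. Ezh2 had 93.4 CPM in the MEF library of 11441278 counts, and 58.2 to 60.9 CPM in the other MEF libraries. Without that library the log2 fold change of Ezh2 was 1.51. Mcm3, a replication gene, had 65.1 CPM in the MEF library of 7312679 counts and 51.4 to 53.6 CPM in the others. The marked libraries differ between the genes.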

How the results depend on the processing

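Over 14 settings, the reported one included, the calls of Ezh1, Eed, Suz12, Jarid2, Mtf2 and Phf1 and the missed call of Phf19 did not change, with log2 fold changes of 1.52 to 2.02 (Ezh1), 1.27 to 1.69 (Eed), 2.1 to 2.59 (Suz12), 3.21 to 3.62 (Jarid2), 3.18 to 3.53 (Mtf2), -4.05 to -2.60 (Phf1) and 0.30 to 0.86 (Phf19). Phf1 passed the filter on low counts through MEFs alone in the reported setting, so its unchanged call adds no support to its counts. Ezh2 (1.24 to 1.60) and Aebp2 (0.58 to 1.04) lost their call only in the test against a fold change of 2, and Rbbp7 (-0.49 to -0.10) in 4 settings. The number of members lower in mESCs was 1 in place of 2 without scaling beyond library size and in the test against a fold change of 2, and 1 to 2 with each library left out. In that same test 4 of the other pathway genes passed in place of 7, and 4 proliferation genes in place of 10. Without a filter beyond 1 count, 12 Polycomb targets passed in place of 7, as all 21 were tested. Without scaling the median log2 fold change of all tested genes was 0.32 in place of 0.037, and 61.0% in place of 47.7% of all calls were higher in mESCs. The PRC2.2 to PRC2.1 balance turned from -0.88 to 1.96 with the mean of log2 counts and to 0.13 with Jarid2 over Mtf2, the latter chosen after seeing the data. With a library left out, the exact tests of the balances cannot reach 0.05 and only their values were compared. Signs also changed for genes near 0. Birc5 had 0.0043 with DESeq2, 0.0044 with its size factors and 0.28 without scaling, and -0.15 to 0.063 with each library left out. Ccna2 had -1.9e-05 without a filter and -0.072 to 0.17 with each library left out, and Lcorl 0.054 without scaling. The cause of these shifts was not tested. No paired analysis was possible because the count columns carry no sample numbers of the labels. Depth limits Phf1, Ezhip and most Polycomb targets, which had few counts.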
